A study of Bos taurus with 3 samples.

Results

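The cullin-RING ubiquitin ligase genes and the ubiquitin-conjugating (E2) enzyme genes were described in BFF116 cells, a bovine fetal fibroblast culture whose nuclei are used for cloning by somatic cell nuclear transfer. Members were taken by gene symbol alone, with no measured value in the rule. They were the cullins, the F-box genes named FBXW, FBXL or FBXO, SKP1, SKP2, RBX1, RNF7, BTRC and the CAND genes. The COP9 signalosome genes named COPS, NEDD8 and the genes named UBE2 followed by a letter were also taken. The rule found 112 of the 31903 genes listed in the deposited count table: 8 cullins, 62 F-box genes, 29 E2 genes and 13 others. The single group held 3 replicates of 70000 cells each, deprived of serum for 48 h before harvest. All 3 libraries share that starvation, and no cells grown in serum were measured, so no value below can be tied to it. The labels leave unsaid if each replicate was a culture or animal of its own, so any spread or p-value here covers only these libraries and may be technical in part. In bulk RNA of this kind, fewer cells of one type and less RNA per cell cannot be told apart.

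Ubiquitin is passed from an E1 activating enzyme to an E2 conjugating enzyme and then, with the help of an E3 ligase, to a protein that is often degraded by the proteasome. In cullin-RING ligases a cullin is the scaffold: its one end holds a RING protein, RBX1 or RNF7, which binds the E2, and its other end holds an adaptor and a substrate receptor. CUL1 uses SKP1 as its adaptor and F-box proteins as receptors, and these are sorted by their substrate-binding repeats into the FBXW class (WD40 repeats), the FBXL class (leucine-rich repeats) and the FBXO class (other folds). Attachment of the ubiquitin-like protein NEDD8 switches cullins on, the COP9 signalosome removes it, and CAND1 exchanges the receptors. These ligases are best known for the timed destruction of cyclins and cyclin-dependent kinase inhibitors.

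Gene counts were 8608350, 4842331 and 7122651 reads in replicates 1 to 3, so replicate 2 gave the least precise values. Levels are reads per 1000000 gene counts (CPM) scaled by the TMM method of edgeR and given as mean ± SD over the 3 replicates (n = 3). They were not corrected for transcript length, since no transcript lengths were used here, so a CPM of one gene above that of another shows more reads and not more transcripts. The upper limit set by a count of 0 (3 reads) equals 0.356, 0.605 and 0.422 CPM in replicates 1 to 3, and such limits and all intervals cover counting error only. Reads aligning to several places made up 7.52 to 7.99% of each library and were not assigned to genes, so levels of near-identical copies, such as UBE2D2 and UBE2D3, are uncertain. Reads over more than 1 gene were 0.235 to 0.253% of each library and were not assigned either, which touches members whose gene span overlaps another, such as FBXL14 with WNT5B, FBXO44 with FBXO2, FBXO18 with IL15RA and UBE2Z with SNF8. All 10 fibroblast markers reached 1 CPM throughout, while 0 of 6 epithelial and 0 of 5 skeletal muscle markers did, with EPCAM, MYOD1 and DES at 0 reads. Of the markers of other cells, 1 of 3 endothelial genes (PECAM1) and 1 of 5 leukocyte genes (CD68) did, with KDR, PTPRC and CD14 at 0 reads, and the sum of each of these lists lay between 1.97 and 6.05 CPM in every library.

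Most of the ligase machinery was transcribed. Measured here means at least 1 CPM in all 3 libraries, which 95 of 112 members (84.8%) and 34.6% of all listed genes met. The listed genes include tRNA genes and unnamed LOC entries, so they are not a set like the members. The 17 members below this level comprised 15 F-box genes and 2 E2 genes, UBE2L6 and UBE2U. All 8 cullins, both RING genes, SKP1, NEDD8, both CAND genes and all 7 COP9 signalosome genes among the members were measured. The median CPM of measured members was 33.3, and that of all measured genes was 20.5. Members held 0.507, 0.494 and 0.454% of gene counts in replicates 1 to 3.

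The cullin scaffolds differed in which library held their highest level, with 4 of 8 highest in replicate 1, against 39.3% of all genes tested for spread. CUL3, the scaffold of ligases whose receptors carry a BTB domain, stood at 205, 164 and 107 CPM in replicates 1 to 3. CUL4B, which works with the adaptor DDB1, stood at 132, 103 and 57.7 CPM. CUL5, the scaffold for receptors of the SOCS type, stood at 91.7, 48.6 and 41.8 CPM, and CUL2, which carries the VHL receptor, at 90.2, 45.9 and 32.9 CPM. All 4 were highest in replicate 1 and lowest in replicate 3, by 1.92-fold for CUL3 and 2.74-fold for CUL2. The other 4 cullins were lowest in replicate 1. Of all genes tested for spread, 25.5% were highest in replicate 1 and lowest in replicate 3. A further 14.4% were highest in replicate 2 and lowest in replicate 1, and 25.9% highest in replicate 3 and lowest in replicate 1. CUL1, the scaffold for F-box receptors, averaged 79.4 ± 8.83 CPM and varied 1.24-fold. CUL7, which pairs with FBXW8, averaged 79.2 ± 11.4 CPM, and CUL4A, the close paralog of CUL4B, averaged 52.1 ± 8.79 CPM. CUL9, a large relative of CUL7, averaged 13.8 ± 3.93 CPM. Summed over the 8 genes, cullin CPM was 708, 605 and 480 in replicates 1 to 3.

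**Figure D1:**
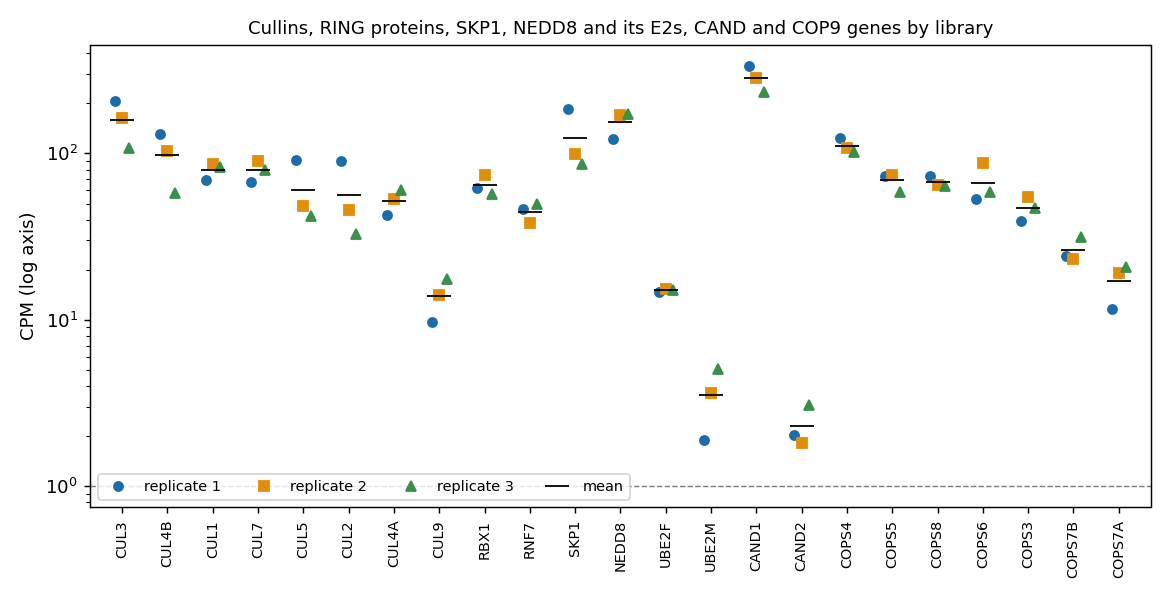
CPM on a log axis for the cullins, RING proteins, SKP1, NEDD8 and its E2 enzymes, CAND and COP9 signalosome genes; points are the 3 replicates, bars their mean, and the dashed line 1 CPM. CUL3, CUL4B, CUL5, CUL2, SKP1, CAND1, COPS4 and COPS8 are highest in replicate 1. Most COP9 signalosome genes vary less than 1.5-fold, as do CUL1, CUL7, CUL4A and 46.4% of all genes tested for spread.

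Paralog scaffolds changed balance between the libraries. CUL4A supplied 24.5% of the reads of CUL4A and CUL4B in replicate 1 (exact 95% binomial interval 22.3 to 26.8), 34.1% in replicate 2 (30.8 to 37.6) and 51.1% in replicate 3 (47.6 to 54.5). The intervals did not overlap, so the shares differed by more than counting error, and what they moved with was not tested. CUL1 likewise supplied 25.2, 34.4 and 43.6% of the reads of CUL1 and CUL3. By contrast the share of CUL2 in the reads of CUL2 and CUL5 was 49.6, 48.6 and 44.1%, so their balance changed less. Both were highest in replicate 1 and lowest in replicate 3, as were CUL3, CUL4B and 25.5% of all genes tested for spread. A share does not depend on library scaling, but its size carries the lengths of both transcripts.

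The RING proteins and the adaptor were measured throughout. RBX1, which serves most cullins, averaged 64.4 ± 9.14 CPM, and RNF7, the RING partner of CUL5, averaged 44.6 ± 5.85 CPM. RBX1 drew more reads than RNF7 in every library, with a log2 read ratio of 0.52 ± 0.39, taken here and below on log2(CPM + 0.5). RNF7 did not follow CUL5, being lowest in replicate 2. SKP1, the adaptor that links F-box proteins to CUL1, stood at 186, 98.7 and 87.0 CPM in replicates 1 to 3. It was thus 2.14-fold higher in replicate 1 than in replicate 3, unlike its scaffold CUL1.

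Genes of the NEDD8 cycle were measured with few reads for one conjugating enzyme. NEDD8 itself averaged 155 ± 28.4 CPM and was lowest in replicate 1, at 122 CPM. UBE2F, the NEDD8 E2 known to act with RNF7 on CUL5, was level at 14.6, 15.3 and 15.2 CPM. UBE2M, the NEDD8 E2 known to act with RBX1 on other cullins, had only 16, 18 and 36 reads, or 1.90, 3.63 and 5.07 CPM. UBE2M drew fewer reads than UBE2F in all 3 libraries, with a log2 read ratio of -2.03 ± 0.58. CAND1, the exchange factor, averaged 285 ± 51.9 CPM, with 337 CPM in replicate 1 and 233 CPM in replicate 3. Its paralog CAND2 had 17, 9 and 22 reads.

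The 7 COP9 signalosome members averaged between 17.2 and 111 CPM. GPS1, a COP9 subunit gene outside the symbol rule, was named after its values were seen. It had 77, 71 and 119 reads, averaged 13.4 ± 3.88 CPM and was counted in the neddylation list below. COPS4 averaged 111 ± 11.5 CPM, COPS8 67.3 ± 5.44 CPM, COPS3 46.9 ± 7.61 CPM and COPS7B 26.3 ± 4.65 CPM. COPS5, the subunit that cleaves NEDD8 from cullins, averaged 68.8 ± 8.91 CPM, and it overlaps CSPP1 in the RefSeq annotation. COPS6, the inactive partner of COPS5, stood at 53.5, 87.3 and 58.5 CPM. The log2 read ratio of COPS5 over COPS6 was 0.45, -0.23 and 0.00 in replicates 1 to 3, so neither gene drew more reads throughout. COPS7A, which can take the place of COPS7B, averaged 17.2 ± 4.89 CPM and drew fewer reads than COPS7B in every library. The median coefficient of variation over libraries was 16.2% for the 7 COP9 genes and 29.8% for the 8 cullins, a difference that was not tested and in which single genes overlap, against 22.4% for all 10434 genes that had at least 10 reads in each library.

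All 9 genes of the FBXW class were measured. FBXW11 and BTRC, the paired β-TrCP receptors that recognise phosphorylated β-catenin and IκB, averaged 120 ± 25.1 and 55.6 ± 7.50 CPM. BTRC drew fewer reads than FBXW11 in all 3 libraries, with a log2 read ratio of -1.09 ± 0.39. FBXW7, the receptor for cyclin E, MYC and NOTCH1, had 73, 30 and 78 reads and averaged 8.56 ± 2.47 CPM. FBXW8, the partner of CUL7, averaged 15.5 ± 4.19 CPM. FBXW12, which matched no symbol or synonym in the RefSeq annotation, averaged 26.5 ± 10.6 CPM. The remaining 4 genes rested on few reads: FBXW5 had 23, 33 and 75 reads and FBXW9 had 12, 34 and 19, while FBXW4 and FBXW2 had at most 18 in any library. The mean CPM of FBXW9 was 3.65 with all libraries and 2.05 without replicate 2.

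Of the 18 genes of the FBXL class 14 were measured. FBXL7, reported to target Aurora A, averaged 196 ± 24.7 CPM and varied 1.29-fold. FBXL21 stood at 15.1, 9.87 and 9.57 CPM and was highest in replicate 1. FBXL5, the iron-sensing receptor for IREB2, averaged 68.9 ± 13.4 CPM. SKP2, which recognises the kinase inhibitor CDKN1B and is known as a driver of entry into S phase, averaged 24.5 ± 4.98 CPM, highest in replicate 1 at 30.2 CPM. FBXL14 (37.9 ± 1.92 CPM), which acts on SNAI1, and FBXL20 (27.9 ± 3.33 CPM) were nearly level. FBXL4, a gene of mitochondrial upkeep, averaged 13.7 ± 3.75 CPM. FBXL16 had 9, 10 and 55 reads, so its mean of 3.61 CPM was 1.54 CPM without replicate 3. The other 5 measured genes, FBXL2, FBXL12, FBXL6, FBXL15 and FBXL17, averaged 2.00 to 8.35 CPM. FBXL18 and FBXL22 had 0 reads, and FBXL13 and FBXL8 had at most 12 in any library.

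The FBXO class was the largest and had the most genes near 0, with 24 of 35 measured. FBXO11, a receptor known to act on BCL6, stood at 160, 93.3 and 47.8 CPM in replicates 1 to 3, a 3.34-fold range, and it overlaps MSH6 in the RefSeq annotation. The other abundant genes varied by less than 1.5-fold: FBXO30 averaged 89.5 ± 12.7 CPM, FBXO9 88.7 ± 10.7 CPM, FBXO38 74.2 ± 9.20 CPM, FBXO3 54.0 ± 6.43 CPM, FBXO8 37.3 ± 3.37 CPM and FBXO18, a DNA helicase also named FBH1, 36.7 ± 7.26 CPM. FBXO7, a regulator of the proteasome and a gene of inherited parkinsonism in humans, averaged 52.9 ± 4.24 CPM. FBXO32 (atrogin-1), a FOXO target induced when muscle wastes, had 135, 87 and 95 reads and averaged 15.6 ± 2.11 CPM. It drew fewer reads than FBXO30, another ligase of wasting muscle in mice, with a log2 read ratio of -2.48 ± 0.18. FBXO5 (EMI1), which holds back the anaphase-promoting complex in S and G2 phase, had 38, 21 and 9 reads, or 4.51, 4.23 and 1.27 CPM. Of the glycoprotein-binding members FBXO6 averaged 8.50 ± 0.634 CPM and FBXO2 had 2, 7 and 6 reads. FBXO42, FBXO25, FBXO34, FBXO28, FBXO22, FBXO21, FBXO31, FBXO33 and FBXO17 averaged 5.80 to 34.5 CPM. FBXO10, FBXO36, FBXO40 and FBXO41 had at most 8 reads in any library. FBXO15, a marker of pluripotent cells in mice, had 9, 12 and 13 reads, and FBXO43 (EMI2), the oocyte counterpart of FBXO5, had 0, 3 and 0.

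**Figure D2:**
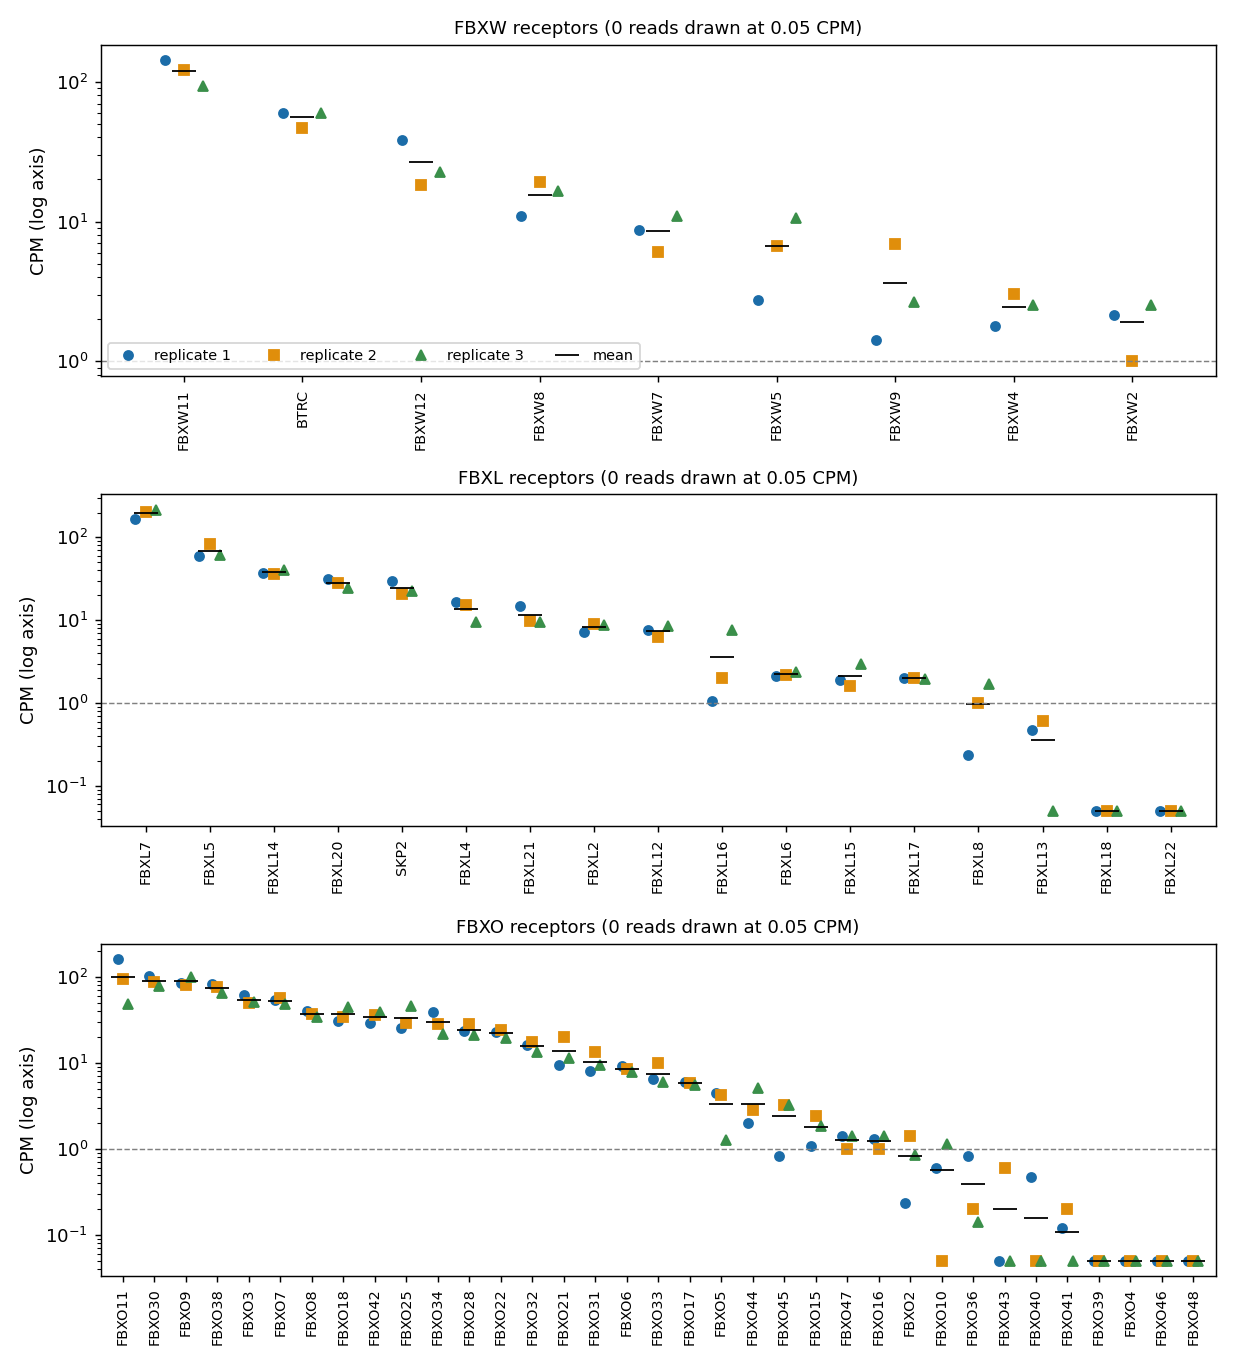
CPM on a log axis for the FBXW, FBXL and FBXO genes; points are the 3 replicates, bars their mean, the dashed line 1 CPM, and genes without reads are drawn at 0.05 CPM. The 9 FBXW genes all lie above 1 CPM, whereas 4 FBXL and 11 FBXO genes fall below it in some library.

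Of all 112 members 6 had 0 reads in every library, against 43.5% of all listed genes, which include tRNA and LOC entries. The 6 members were FBXL18, FBXL22, FBXO39, FBXO4, FBXO46 and FBXO48, and 0 reads allow up to 0.605 CPM in the shallowest library if reads could be assigned to them. Their neighbours in the RefSeq annotation of the ARS-UCD2.0 assembly were not all silent: QPCTL and SNRPD2 near FBXO46 had 138, 70 and 130 and 351, 263 and 383 reads, and OXCT1 near FBXO4 had 589, 202 and 199. QPCTL also overlaps FBXO46 in that annotation, and the build and strand setting used for counting are not given, so whether reads of FBXO46 could be assigned was not tested. At the edge of the 1 CPM level, FBXO16 (11, 5 and 10 reads) and FBXO47 (12, 5 and 10 reads) lay just inside. FBXO45 (7, 16 and 23 reads) lay just outside because of replicate 1, at 0.831 CPM. FBXL8 (2, 5 and 12 reads) had a mean of 0.978 CPM but only 0.238 CPM in replicate 1.

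E2 enzymes were almost all measured, at 27 of 29 genes. The UBE2D genes, whose products work with very many E3 ligases, were led by UBE2D3 at 399 ± 54.7 CPM and UBE2D2 at 163 ± 25.9 CPM, with UBE2D4 at 20.3 ± 0.943 CPM and UBE2D1 at 8.72 ± 3.84 CPM. UBE2D3 drew 65.6, 69.9 and 76.9% of the reads of UBE2D2 and UBE2D3 in replicates 1 to 3. UBE2D1 had 101, 48 and 32 reads and was 2.66-fold higher in replicate 1 than in replicate 3. Of the UBE2E genes, UBE2E3 averaged 122 ± 22.2 CPM, UBE2E1 39.8 ± 5.74 CPM and UBE2E2 9.02 ± 2.07 CPM. The share of UBE2E1 in the reads of UBE2E1 and UBE2E3 was 23.6, 24.2 and 26.1%, and on the log2 scale their ratio had the smallest SD of the 23 pairs with both genes measured (-1.60 ± 0.10).

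Several other E2 genes make or extend ubiquitin chains. CDC34, an E2 of CUL1 ligases that lies outside the symbol rule and was named after its values were seen, had 37, 37 and 97 reads. UBE2R2, its paralog, averaged 77.5 ± 13.5 CPM, UBE2G1, which extends chains on cullin substrates, 47.6 ± 14.4 CPM, and UBE2K, which builds lysine-48 chains, 97.7 ± 12.7 CPM. UBE2N, which builds lysine-63 chains, averaged 43.4 ± 9.76 CPM, and its catalytically inactive partner UBE2V1 192 ± 5.05 CPM, a 1.05-fold range. UBE2B, a RAD6 enzyme of histone H2B and DNA damage tolerance, stood at 91.5, 53.6 and 56.8 CPM.

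Genes for E2 enzymes of degradation at the endoplasmic reticulum differed in their order of libraries. UBE2J1 averaged 62.4 ± 4.75 CPM and was level, while UBE2J2 stood at 7.72, 15.9 and 23.5 CPM and UBE2G2 at 9.86, 18.3 and 21.1 CPM, both lowest in replicate 1. UBE2J1 accordingly supplied 89.6% of the reads of UBE2J1 and UBE2J2 in replicate 1 (exact 95% binomial interval 87.0 to 91.9), 79.8% in replicate 2 (75.5 to 83.7) and 71.0% in replicate 3 (67.1 to 74.6). UBE2G1 supplied 86.7, 68.2 and 65.0% of the reads of UBE2G1 and UBE2G2. The order of UBE2J2 and UBE2G2, highest in replicate 3 and lowest in replicate 1, was that of 25.9% of all genes tested for spread.

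Cell-cycle E2 enzymes had few reads. UBE2C and UBE2S, which start and extend ubiquitin chains for the anaphase-promoting complex in mitosis, had 45, 40 and 40 reads and 9, 18 and 32 reads. UBE2C averaged 6.34 ± 1.49 CPM and UBE2S 3.07 ± 1.78 CPM. The share of UBE2C in their summed reads was 83.3, 69.0 and 55.6% in replicates 1 to 3. The exact 95% interval of replicate 2 (55.5 to 80.5) overlapped those of both other libraries, at 70.7 to 92.1 and 43.4 to 67.3.

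The other E2 genes serve ubiquitin-like proteins or particular ligases. UBE2L6, the E2 of the interferon-induced modifier ISG15, had 7, 3 and 19 reads. UBE2L3, which serves HECT and RBR ligases, averaged 33.3 ± 8.74 CPM, UBE2Z, which is loaded by UBA6, 59.6 ± 5.43 CPM, and UBE2H, the E2 of the CTLH ligase, 24.9 ± 7.96 CPM. UBE2Q1 averaged 69.0 ± 4.84 CPM and UBE2Q2 51.0 ± 6.89 CPM. UBE2O, an E2 that is also a ligase, had 29, 35 and 43 reads, and UBE2U had 5, 7 and 2.

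**Figure D3:**
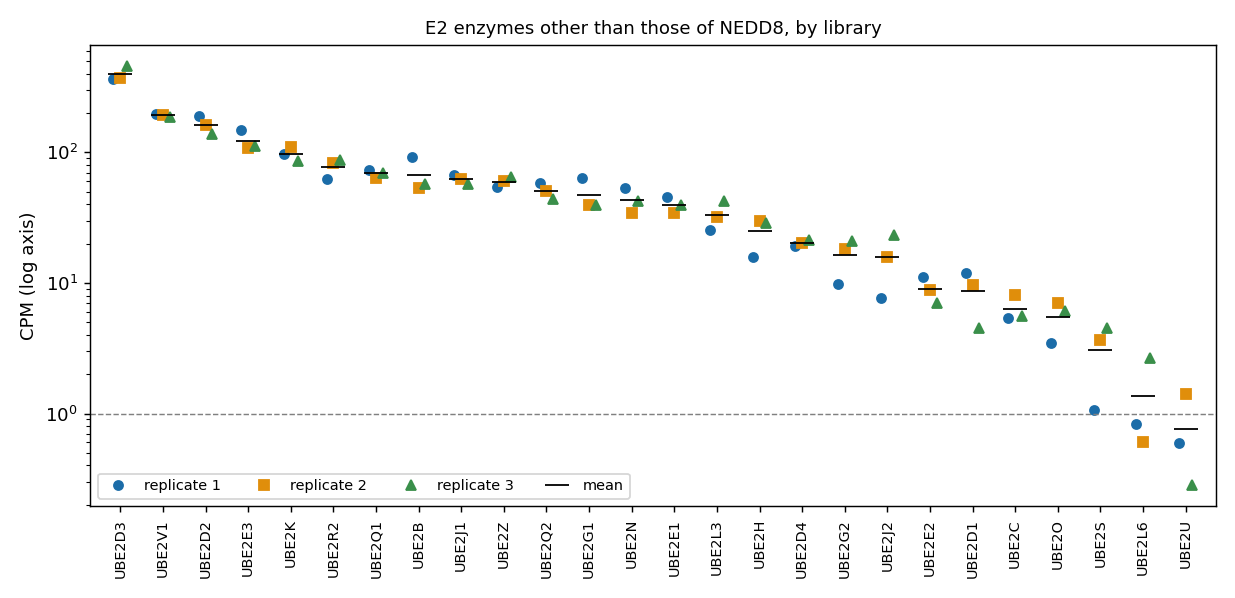
CPM on a log axis for 26 E2 genes other than UBE2M and UBE2F; points are the 3 replicates, bars their mean, and the dashed line 1 CPM. UBE2V1 and UBE2D4 are nearly level, and UBE2J2, UBE2G2 and UBE2S are lowest in replicate 1.

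Whether any member varied between replicates beyond genes of like level was tested with a negative binomial statistic around the dispersion trend of edgeR, fitted on the 10434 genes with at least 10 reads in each library. Of the members 86 entered the test, and 0 passed at an adjusted p under 0.05, as did 0% of all genes tested. Without adjustment 5 of 86 members (5.81%) and 5.06% of all genes had a p under 0.05, so the members' share was near that of all genes. The 5 were FBXO11, FBXW9, CUL2, SKP1 and CUL5, of which FBXO11 had the smallest adjusted value, 0.526 with the edgeR trend. With the dispersion trend of DESeq2 in its place 0 members passed and 4 had an unadjusted p under 0.05. With 3 libraries the test thus did not separate any member from genes of like level, and a p that misses the threshold does not show that a member was level. The common biological coefficient of variation was 0.273.

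**Figure D4:**
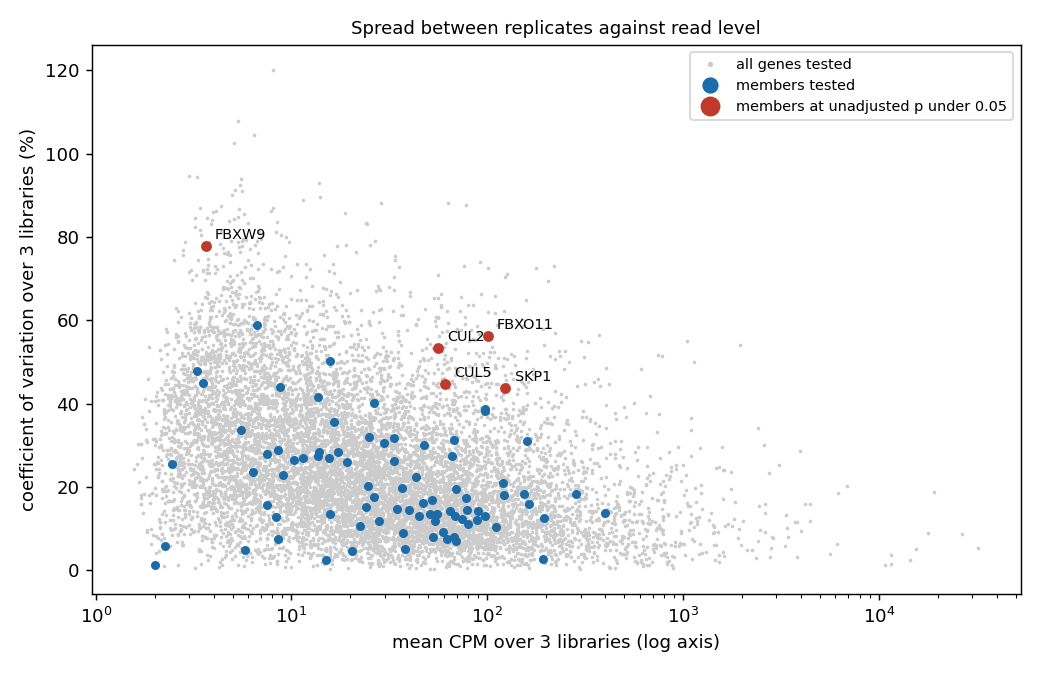
Coefficient of variation over the 3 libraries (%) against mean CPM (log axis) for all 10434 genes tested (grey) and 86 members (blue, or red at an unadjusted p under 0.05). The named members FBXO11, FBXW9, CUL2, SKP1 and CUL5 lie toward the upper edge of the cloud of all genes.

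The size of those differences was described for the same 86 members. The highest library exceeded the lowest by a median of 1.41-fold, against 1.54-fold for all genes tested. It did so by more than 2-fold in 16 members (18.6%) and in 24.6% of all genes. Of the 16, 7 were highest in replicate 1 and lowest in replicate 3, among them FBXO11, CUL2, UBE2D1, CUL4B, CUL5 and SKP1. Another 5 had the opposite order, namely FBXW5, UBE2J2, UBE2M, FBXO44 and UBE2G2. FBXW9, FBXO21 and UBE2O were highest in replicate 2 and lowest in replicate 1, and FBXW12 was highest in replicate 1 and lowest in replicate 2. The first order held for 28 of 86 members (32.6%) and 25.5% of all genes, and the second for 20 members (23.3%) and 25.9% of all genes. Replicate 1 was also the most deeply read library. Replicate 3 had the largest share of reads assigned to no feature, at 62.0% against 59.2 and 58.9% in replicates 1 and 2. The part of depth or of this share in the orders above was not tested.

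Read ratios were computed for 25 of 28 pairs of paralogs or partners, the others being not analysed here, and both genes were measured in 23. Of these 20 had the same sign in all 3 libraries, and CUL4A over CUL4B, COPS5 over COPS6 and UBE2R2 over UBE2K did not. An exact sign-flip permutation test over 3 replicates cannot give a p below 0.25, so no pair was tested. The sign of a ratio carries the lengths of both transcripts. The shift between libraries is free of them only where length bias is alike in all libraries, which was not tested. SKP1 over SKP2 (2.25 ± 0.34) and CUL7 over CUL9 (2.51 ± 0.31) had log2 ratios far from 0 relative to their SD. UBE2G1 over UBE2G2 (1.53 ± 0.96) and UBE2J1 over UBE2J2 (2.08 ± 0.89) were among those with the widest spread.

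**Figure D5:**
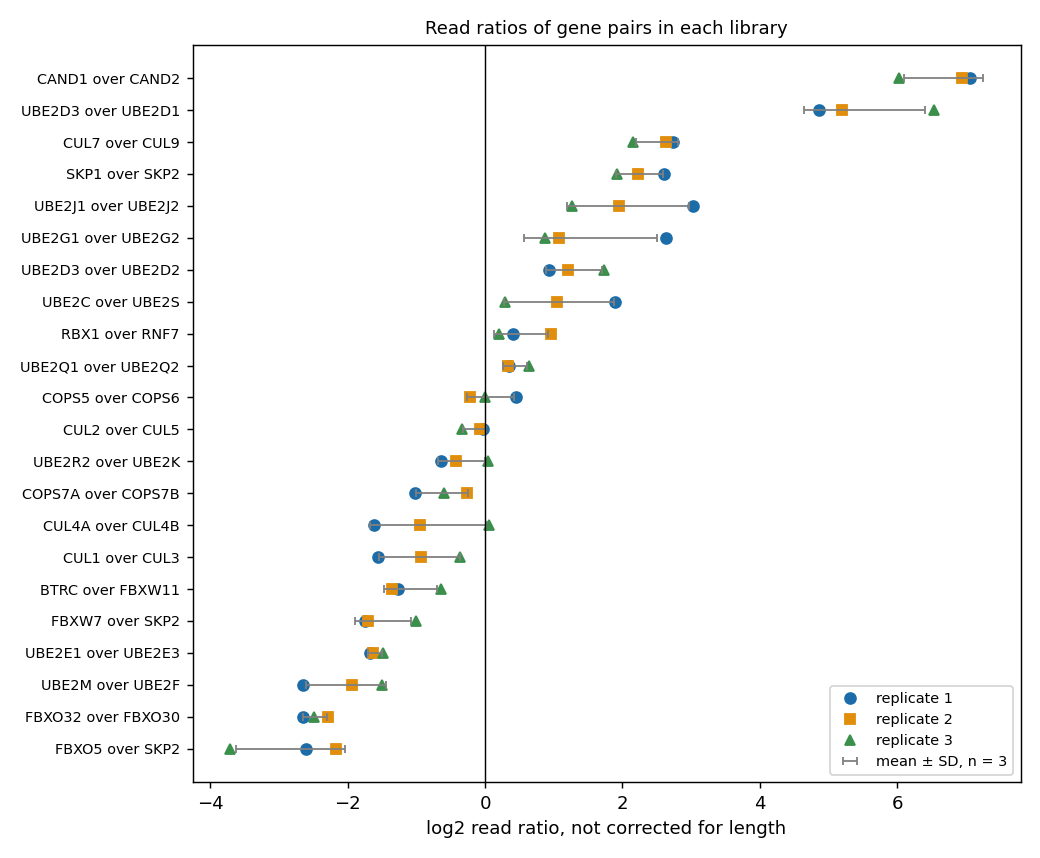
Log2 read ratios of 22 pairs with both genes measured, not corrected for length; points are the 3 replicates and bars the mean ± SD (n = 3). CUL4A over CUL4B, COPS5 over COPS6 and UBE2R2 over UBE2K cross 0.

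Partner genes of the same pathway were counted in lists. For comparison with the counts below, 84.8% of members and 34.6% of all listed genes were measured. The list of E1 enzymes and regulators of neddylation also held the E2 gene CDC34 and the F-box gene CCNF. Of its 21 genes 19 were measured. It was led by UBA1, the main ubiquitin E1 (208 ± 41.8 CPM), the ligase ARIH1 (156 ± 23.0 CPM) and UBA3 (140 ± 34.0 CPM). UBA3 is the catalytic subunit of the NEDD8 E1. The exceptions were DCUN1D3 with 0 reads and the NEDD8 protease SENP8 with 6, 3 and 0. NAE1, the other subunit of the NEDD8 E1, stood at 64.0, 44.5 and 22.4 CPM, and GLMN, an inhibitor that binds RBX1, at 65.3, 23.6 and 17.9 CPM. Both were therefore highest in replicate 1, as were 9 of the 18 list genes tested for spread, against 39.3% of all genes tested. Of the 18, 3 had an unadjusted p under 0.05, against 5.06% of all genes, and 0 passed after adjustment in edgeR. Values of NAE1 and GLMN are given because their order matched that of CUL2, a choice made after seeing them. Another 6 of the 18 were highest in replicate 3, and 3 in replicate 2. UBA1 was among the 6, at 161, 220 and 242 CPM in replicates 1 to 3.

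Adaptors and receptors of the other cullins had 31 of 36 genes measured, led by the BTB proteins KLHL9 (118 ± 27.3 CPM) and KCTD10 (108 ± 20.5 CPM) and by SOCS5 (91.4 ± 37.3 CPM), a receptor of CUL5. Those below were DCAF15, SOCS2, SOCS3, ASB1 and ASB13, with SOCS3 at 0 reads. Known substrates had 34 of 39 genes measured, led by the GTPase RHOA (826 ± 17.5 CPM), the survival factor MCL1 (546 ± 37.0 CPM) and CTNNB1, which encodes β-catenin (497 ± 19.0 CPM). The 5 below were CDC25A, the replication licensing factor CDT1, CRY2, DEPTOR and SNAI1, with at most 21 reads in any library. All 15 genes of the anaphase-promoting complex in the table were measured, led by CDC27 (132 ± 22.5 CPM), CDC16 (75.4 ± 16.2 CPM) and ANAPC13 (70.1 ± 22.1 CPM).

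Partners of single E2 enzymes had 31 of 33 genes measured, led by SEL1L (794 ± 149 CPM), a subunit of the ligase complex that UBE2J1 serves at the endoplasmic reticulum, the HECT ligase HUWE1 (515 ± 29.7 CPM) and the SUMO ligase RANBP2 (299.9 ± 27.3 CPM). ISG15, the modifier that UBE2L6 conjugates, had 0, 13 and 0 reads, and PARK2 had 2, 0 and 2. Among FOXO factors and their targets 12 of 15 genes were measured, led by MAP1LC3B (200.4 ± 36.0 CPM), SESN3 (189 ± 45.5 CPM) and FOXO1 (112 ± 19.4 CPM). TRIM63 (MuRF1), the muscle ligase usually named beside FBXO32, had 0 reads in every library, and KLF15 and PIK3IP1 had at most 7 reads in any library.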

How the data were processed

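The deposited values are raw counts of reads per gene in 3 replicates of 1 group. The submitters' processing notes name HTSeq 0.6.1, TopHat2 2.0.10 and bcl2fastq 2.18.0.12, with no role or order. Genome build, annotation, counting mode and strand are not given in those notes or in the labels. A further 5 summary rows name no gene and entered neither library sizes nor tests; they held 67.3, 66.7 and 70.2% of all counted reads. CPM was computed with edgeR 4.0.16 in R 4.3.3 with TMM factors of 0.978, 1.02 and 0.998, and log2 levels are log2(CPM + 0.5).

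Spread between replicates was tested where each library had at least 10 reads, with a negative binomial Pearson statistic around edgeR's trended dispersion, chi-square with 2 degrees of freedom and Benjamini-Hochberg adjustment over all genes. The procedure was tested on simulated data. The symbol rule for members uses no measured value, but it, the gene lists and the pairs were chosen with earlier results of these data known. Named genes were the scaffold, adaptor, NEDD8, COP9 and E2 genes, the 8 F-box genes with the highest mean CPM per class, members at 0 reads or near 1 CPM, pairs, and, of each list, the 3 highest and those under 1 CPM where 6 or fewer. Further F-box genes (FBXO15, FBXO43, FBXL16, FBXO44 and others with few reads or wide spread) were named after their values were seen.

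Symbols were set against RefSeq's gene table for ARS-UCD2.0, where 110 of 112 members matched by symbol, 1 by synonym and FBXW12 by neither. Of the members, 38 have a gene span there that overlaps another gene, in part small RNA genes. Overlap of exons was not tested, and the strand setting is unknown. A further 7 coding symbols there that fit the member rule were not analysed here. Values of 2 members are not reported here, though both enter all counts. Alternatives were DESeq2 1.42.0 size factors and dispersions, other thresholds and pseudocounts, and each replicate left out in turn.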

Additional observations from a re-analysis of the deposited data

How the results depend on the processing

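The number of measured members was 95 and lay between 82 and 97 under other thresholds, DESeq2 size factors and with each replicate left out. No member passed the test of spread (edgeR or DESeq2 trend) under any alternative, although 15 of 10637 genes in all passed without replicate 1 and 1 of 10665 without replicate 3. The members' share of reads was 0.485% of gene counts and 0.155% of all counted reads, since the larger total includes reads not assigned to any gene. The median log2 level of measured members was 5.08, and between 4.90 and 5.11 with a replicate left out, where the set of measured members also changes. The log2 read ratio of COPS5 over COPS6 was 0.08 with all replicates, and from -0.11 without replicate 1 to 0.23 without replicate 2. The other 114 values of pairs kept their sign and moved by less than 1 SD. Leaving out 1 of 3 replicates cannot move a mean by 1 SD. Nor can it change the sign of a pair with the same sign in every library. Those outcomes were therefore fixed in advance and are no test of stability. After seeing the data, scaling was varied for the order of libraries: 36 of 86 members (41.9%) were highest in replicate 1, against 39.3% of all genes tested, 37 with DESeq2 size factors and 33 with total gene counts, and 4 of 8 cullins under each. Alternatives per kilobase were not run, because no transcript lengths were used here. No paired analysis was possible because there is 1 group. Members with few reads in every library have a wide counting error.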
